A study of Mus musculus with 9 samples.

Results

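The genes of the integrin subunits and of the laminin chains were followed in RNA from mouse brain. Members were taken by symbol from the count table: every gene whose symbol starts with Itga or Itgb, without Itgbl1 and the integrin-binding protein genes, and every Lama, Lamb or Lamc gene followed by a number. The rule found 38 of 18138 genes, of which 27 encode integrin subunits and 11 encode laminin chains, and 34 had enough counts to be tested, 23 of the integrins and all 11 laminins. The samples were 3 control brains, 3 brains after middle cerebral artery occlusion (MCAO), which models an ischaemic stroke by surgery, and 3 MCAO brains treated with hypidone hydrochloride at 5 mg/kg, given continuously over 7 days. Hypidone is an antidepressant candidate that acts on the serotonin system. The hypidone group carries the occlusion as well as the drug. The sources used here give no strain, age, brain region, hemisphere, sham surgery, vehicle or time after occlusion. Nothing in the labels ties the 3 samples of a group to separate animals, and p-values then measure only sample-to-sample spread, part of which may be technical. Libraries are named by group and title number.

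Integrins are receptors made of 1 alpha and 1 beta subunit that span the cell membrane and bind matrix proteins or proteins of other cells. Laminins are secreted trimers of an alpha, a beta and a gamma chain, and form the scaffold of basement membranes, where several integrins bind them. In the brain, the vessel wall and the astrocyte endfeet around it share a laminin-rich basement membrane, beta1 and alphav integrins are widespread, and the beta2 integrins belong to microglia and blood leukocytes, the alphaM and beta2 pair being known to immunologists as CD11b and CD18.

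Promoter sequence is shown for some members: the neighbouring alpha subunit genes Itgam and Itgax, which share the partner Itgb2, and Itga5 and Itgb5, which were higher after MCAO. Neither Itgam nor Itgax passed the threshold used below in the fit of all 9 libraries. RefSeq (GRCm38.p6) windows covered 24 of the 38 members, and Itgb2 and Itgad were not among them. Each line is the 250 bases before the RefSeq start, 5′ to 3′ on the gene's strand. For Itga5 the bases just after that start were found in no GENCODE M21 transcript of the gene. For the other genes shown they were found in a transcript, not necessarily at its start. The Itgax window ends just inside the GENCODE gene, which starts at chr7:128129547. Capitals mark matches, on either strand, to 5 motifs: the TATA box TATAAA, the GC box GGGCGG, the AP-1 motif TGANTCA, the PU.1 core GAGGAA and the STAT motif TTCNNNGAA. The Itgam window is chr7:128062390-128062639 on the plus strand, Itgax is chr7:128129300-128129549 on the plus strand, Itga5 is chr15:103366792-103367041 on the minus strand and Itgb5 is chr16:33829415-33829664 on the plus strand.
Itgam: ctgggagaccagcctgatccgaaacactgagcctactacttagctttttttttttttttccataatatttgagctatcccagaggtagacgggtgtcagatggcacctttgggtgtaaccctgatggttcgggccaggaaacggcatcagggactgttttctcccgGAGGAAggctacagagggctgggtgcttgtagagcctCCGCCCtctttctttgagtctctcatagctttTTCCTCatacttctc
Itgax: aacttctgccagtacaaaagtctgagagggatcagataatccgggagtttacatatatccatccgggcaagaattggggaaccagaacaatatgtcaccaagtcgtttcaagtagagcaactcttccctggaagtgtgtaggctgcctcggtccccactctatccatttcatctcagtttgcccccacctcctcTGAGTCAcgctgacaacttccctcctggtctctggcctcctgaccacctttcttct
Itga5: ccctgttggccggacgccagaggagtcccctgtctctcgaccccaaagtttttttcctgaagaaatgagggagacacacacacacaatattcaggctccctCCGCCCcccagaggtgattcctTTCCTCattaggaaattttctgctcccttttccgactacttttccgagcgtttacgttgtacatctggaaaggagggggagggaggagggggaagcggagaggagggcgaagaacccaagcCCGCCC
Itgb5: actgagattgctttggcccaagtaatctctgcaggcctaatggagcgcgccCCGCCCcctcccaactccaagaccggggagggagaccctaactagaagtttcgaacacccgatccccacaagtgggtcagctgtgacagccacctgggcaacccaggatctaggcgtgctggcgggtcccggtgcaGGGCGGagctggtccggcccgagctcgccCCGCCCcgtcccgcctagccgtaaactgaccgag
The Itgam window held 1 GC box and 2 PU.1 cores, at 84 and 15 bases before the start. A single AP-1 motif, 56 bases before the start, was the only match in the Itgax window. Itga5 had 2 GC boxes and 1 PU.1 core, and Itgb5 had 3 GC boxes. Among all 32851 windows of the same length, 32.7% held a GC box, 23.3% a PU.1 core, 6.75% the AP-1 motif, 12.4% the TATA box and 7.02% the STAT motif. These matches describe the letters of the windows and were not tested for binding.

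Library totals ran from 32075682 counts in control 4 to 37325027 in MCAO 4. Some libraries stood apart. The 3 MCAO libraries differed from each other along the first principal component of all tested genes (47.3% of the variance), with MCAO 5 at 103, MCAO 6 at 64.4 and MCAO 4 at 11.0, while the controls lay between -42.4 and -22.7 and the hypidone libraries between -31.0 and -13.0. Control 5 held a summed 1124 CPM (counts per library size, scaled with TMM factors) of 10 hippocampal neuron genes against 212 to 304 CPM in the other libraries, and 212 CPM of 9 choroid plexus and ependymal genes against at most 25.03 CPM elsewhere. The labels give brain as the tissue, and the 12 neuron markers summed to 14553 to 18280 CPM in controls, 17328, 8647 and 11856 CPM in MCAO 4, 5 and 6, and 16506 to 17962 CPM with hypidone. MCAO 5 and MCAO 6 were thus the lowest libraries for neuron genes.

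The most abundant members across all libraries were, on the FPKM scale (counts scaled by library size and gene length), the broad beta subunit genes Itgb1 at a mean of 22.4 and Itgb5 at 20.3. Itgav, the alphav subunit, followed at 9.27 FPKM, and Itgb8, a partner of alphav in astrocytes and neurons, at 8.14 FPKM. The leukocyte and microglial pair came next, with Itgb2 at 7.72 and Itgam at 7.26 FPKM, then the laminin receptor subunit Itga6 at 5.71 FPKM. Of the laminin chains, Lamb2 was highest at 5.55 FPKM, ahead of Lamc1 at 4.65. Neighbours in this order overlapped in their ranges over libraries, except that Itgb5 was at 12.2 FPKM or more and Itgav at 11.9 FPKM or less in every library. Untested were Itga2, a collagen receptor subunit, with 32 counts over all 9 libraries, Itgae, an alpha subunit of mucosal lymphocytes, with 31, Itgb6, an epithelial beta subunit, with 14, and the Itgb2 homologue Itgb2l with 2. Itgb6 had 3, 4 and 1 counts in controls, none in any MCAO library and 1, 3 and 2 with hypidone, too few for a test.

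The first question was how MCAO and control brains differed. Between them, 10 of the 34 tested members were higher with MCAO and 0 lower, at an adjusted p under 0.05 in edgeR's quasi-likelihood test with Benjamini-Hochberg adjustment over all 14756 tested genes. The background was 10.6% of all tested genes called higher and 9.81% called lower. The 10 were the integrin genes Itga3, Itga5, Itga9, Itgad, Itgb2 and Itgb5 and the laminin genes Lama1, Lama5, Lamb2 and Lamc3. In 13 tested members every MCAO library lay above every control library, and in 0 every one lay below, against 16.5% and 17.0% of all tested genes. The median log2 fold change of the tested members was 0.90, and that of all tested genes 0.01. The count depended on the fit: without 1 library at a time it ran from 1 (without control 4, or without control 6, where 3.61% and 3.19% of all genes were called higher) to 16 (without MCAO 4, where 15.7% were), and in a fit of the MCAO and control libraries alone it was 0, beside 345 genes called higher and 337 lower in the whole table. In bulk tissue, more cells of a type and more RNA per cell cannot be told apart.

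**Figure D1:**
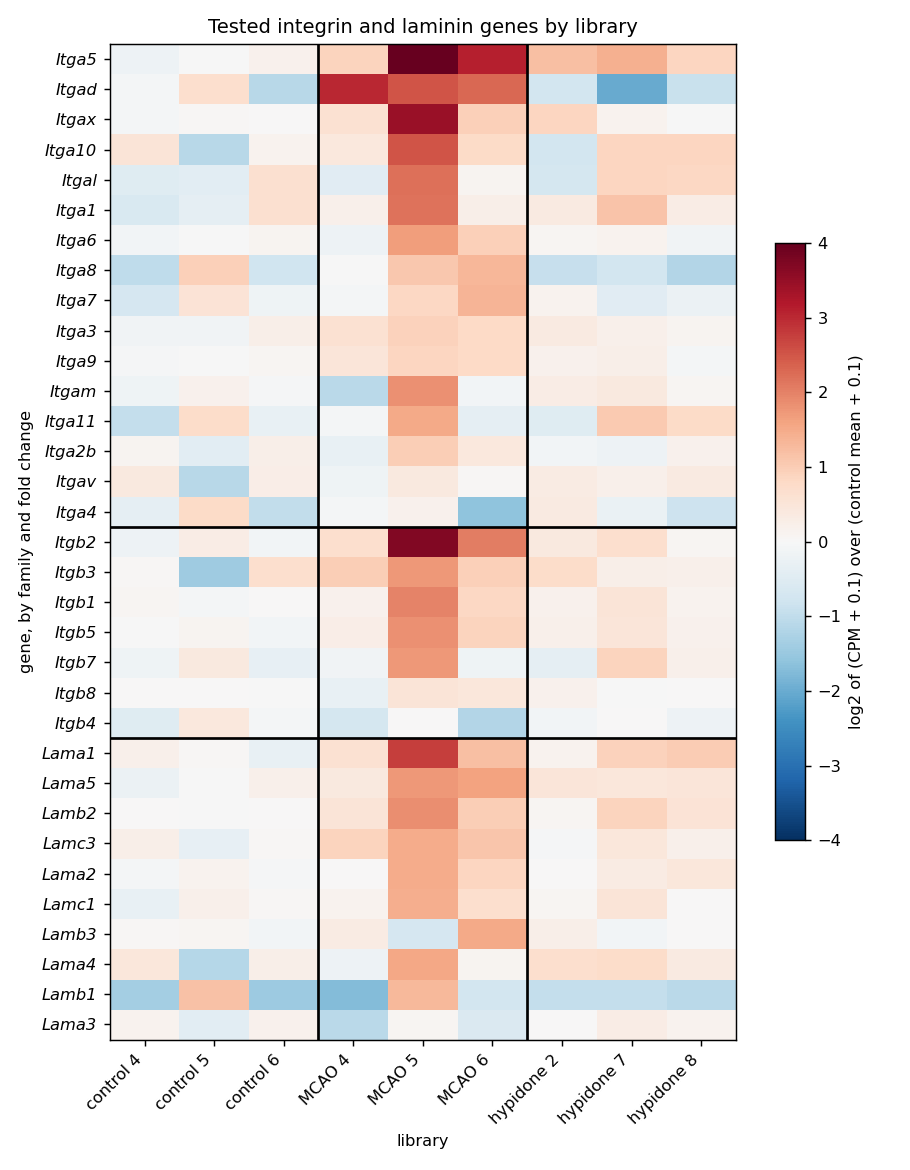
Level of the tested integrin and laminin genes in each of the 9 libraries, as log2 of CPM plus 0.1 over the gene's control mean plus 0.1; 1 tested gene is not drawn. MCAO 5 has the strongest colour in most rows: it was the highest library for 25 of the 34 tested genes.

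The MCAO libraries were uneven. MCAO 5 was the highest of all 9 libraries for 25 of the 34 tested members (73.5%), against 25.6% of all tested genes. The order MCAO 5 above MCAO 6 above MCAO 4 held for 24 members (70.6%) against 30.2% of all genes. MCAO 4 lay within the range of the control libraries for 14 members (41.2%) and above all controls for another 14, against 32.5% and 33.2% of all genes. Markers of several cell types were also uneven over these libraries. The summed level of 12 microglial genes was 548, 1831 and 914 CPM in MCAO 4, 5 and 6, against 516 to 559 CPM in controls and 566 to 675 CPM with hypidone. That of 12 monocyte and macrophage genes was 28.6, 438 and 86.6 CPM, against 16.5 to 19.5 CPM in controls. Endothelial genes (12) summed to 291, 894 and 471 CPM against 210 to 360 CPM in controls, and fibroblast and leptomeningeal genes (11) to 247, 1883 and 384 CPM against 153 to 238 CPM. Astrocyte genes (11) summed to 5918, 8088 and 10253 CPM against 5304 to 6219 CPM. Of these lists 3 of 12 microglial, 6 of 12 macrophage and 4 of 12 endothelial genes were called higher. So were 1 of 11 fibroblast and 4 of 11 astrocyte genes, and none in these lists was called lower. Other lists had genes called lower: 3 of 10 oligodendrocyte, 3 of 9 hippocampal neuron, 1 of 12 neuron and 1 of 8 choroid plexus and ependymal genes. Called higher were 2 of 12 pericyte and smooth muscle, 2 of 6 neutrophil and 1 of 2 B cell genes. Over all tested genes 10.6% were called higher and 9.81% lower. The fibroblast, neuron and choroid plexus counts were near these shares. No gene of these lists was at 0 in every library. Their part in the member results was not tested. With control 5 and MCAO 5 both left out, 9 members were called higher and 2 lower, against 15.7% and 15.2% of all genes in that fit, and 8 of the 10 were among them, with Itga8 as the ninth. Itga9 and Lama1 were not, at adjusted p of 0.0618 and 0.0841. The members called lower in that fit were Itgav, at a log2 fold change of -0.38, and the epithelial laminin gene Lama3, at -0.98.

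Among the leukocyte integrins, Itgb2, the beta2 subunit, partner of the alphaL, alphaM, alphaX and alphaD subunits, stood at 6.42, 9.12 and 6.85 CPM in controls 4, 5 and 6. It was at 11.9, 99.3 and 31.4 CPM in MCAO 4, 5 and 6 and at 9.88, 11.9 and 7.88 CPM in hypidone 2, 7 and 8. Every MCAO library was above the controls, and MCAO 4 was at the level of hypidone 7. The log2 fold change with MCAO was 2.67 ± 0.64 (SE; adjusted p = 0.0218), 1.55 without MCAO 5, and 1.73 without control 5 and MCAO 5. The call was lost without control 4 or without control 6, at adjusted p of 0.0777 and 0.0782. Neutrophils carry beta2 integrins too, and 11 neutrophil genes summed to 1.98 to 4.48 CPM in controls, 9.18, 21.3 and 7.50 CPM in MCAO and 7.14 to 17.9 CPM with hypidone.

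Itgad, the alphaD subunit of macrophages, was a low gene with an even rise. Its levels were 0.287, 0.543 and 0.0901 CPM in controls, 3.21, 2.21 and 1.89 CPM in MCAO, and 0.144, 0 and 0.117 CPM with hypidone. In counts these were 9, 20 and 3, then 113, 85 and 69, then 5, 0 and 4. The MCAO libraries did not overlap with any other, and the highest was MCAO 4, not MCAO 5. The log2 fold change against control was 2.97 ± 0.80 (adjusted p = 0.0320), and 3.77 without control 5 and MCAO 5 (adjusted p = 0.0130). The call was made in 4 of the 9 fits that left out 1 library, and lost without control 4, control 6, MCAO 6, hypidone 2 or hypidone 8 (adjusted p up to 0.101). In GENCODE M21, 12.4% of the exonic bases of Itgad are shared with genes of the opposite strand, Cox6a2 among them, and no source used here gives the strand setting of the counting. Cox6a2, a subunit of cytochrome oxidase, had 399, 197 and 461 counts in controls, 128, 47 and 73 in MCAO and 332, 453 and 451 with hypidone. Its MCAO libraries were thus its lowest as a group, and whether reads of either gene were counted for the other was not tested.

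Itgam, the alphaM subunit and the main beta2 partner in microglia, was not called. It was at 23.1, 29.6 and 25.2 CPM in controls, 12.2, 92.6 and 24.1 CPM in MCAO, and 31.6, 33.9 and 27.3 CPM with hypidone. MCAO 4 was the lowest of the 9 libraries and MCAO 5 the highest. For MCAO against control the log2 fold change was 0.73 ± 0.59 (adjusted p = 0.401), and -0.50 without MCAO 5. Itgax, the alphaX subunit of dendritic cells and activated microglia, was above the controls in all MCAO libraries, at 0.370, 3.28 and 0.494 CPM against 0.192 to 0.217 CPM, with a log2 fold change of 2.72 ± 0.87 (adjusted p = 0.0542), or 1.07 without MCAO 5. The authors' deposited table gave Itgax a fold of 6.66 for MCAO over control (q = 0.0432). Itgal, the alphaL subunit of lymphocytes and other leukocytes, and Itgb7, a beta subunit of gut-homing lymphocytes, ranged from 0.345 to 3.23 CPM and from 0.345 to 1.82 CPM, highest in MCAO 5. Itgam shares 68.7% of its exonic bases with an overlapping predicted gene on the same strand, and Itgam, Itgax and Itgad are neighbouring, related genes (chr7:128062640-128118491, chr7:128129547-128150657 and chr7:128154376-128223816, GRCm38), so that reads could have been divided between them in unknown ways.

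The balance between the beta2 subunit gene and its most abundant partner, Itgam, was therefore followed, as a ratio chosen after the levels had been seen. FPKM of Itgb2 over FPKM of Itgam was 0.446, 0.496 and 0.437 in controls, 1.57, 1.72 and 2.10 in MCAO, and 0.501, 0.564 and 0.464 with hypidone. Unlike either gene, the ratio was even over the MCAO libraries and had no overlap with the others. The log2 ratio was 1.96 higher with MCAO than in controls, and the difference of hypidone from MCAO was -1.81. Both had p = 0.1 in a two-sided exact permutation test, the smallest p that 3 against 3 libraries allow. Leaving out 1 library at a time kept the first difference between 1.84 and 2.05. The other partners, all low genes, differed among themselves. Itgb2 over Itgal was higher in every MCAO library than in every control (log2 difference 1.39). Itgb2 over Itgax overlapped between MCAO and control (log2 difference 0.14), and Itgad had no ratio because it was at 0 in hypidone 7. Itgam made up 95.4% to 96.3% of the summed FPKM of the 4 beta2 partners Itgal, Itgam, Itgax and Itgad in controls and 95.2% to 97.1% with hypidone, but 73.7%, 91.3% and 88.1% in MCAO 4, 5 and 6.

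**Figure D2:**
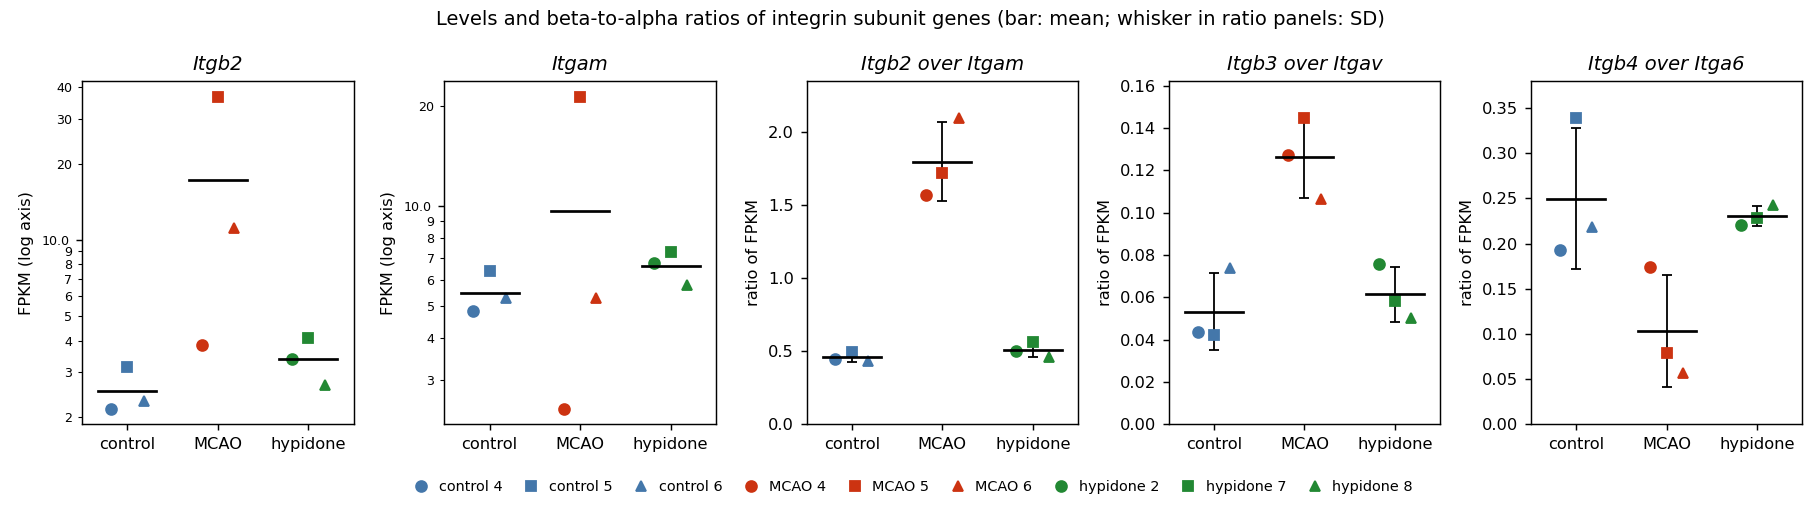
FPKM of Itgb2 and Itgam on log axes, and ratios of FPKM for 3 beta and alpha subunit gene pairs on linear axes, 1 point per library with the group mean (bar) and, for ratios, the SD. Itgb2 over Itgam lies between 1.57 and 2.10 in the MCAO libraries and at most at 0.564 in the 6 others.

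Of 24 known heterodimers, 20 had a ratio in every library. The groups did not overlap for 4 higher and 2 lower ratios with MCAO against control, and for 2 higher and 5 lower with hypidone against MCAO, shares near those of single genes (33.5% and 39.9% of all tested genes in both directions). Itgb3 over Itgav, the genes of the vitronectin receptor found on vessels, microglia and platelets, was 0.0439, 0.0421 and 0.0741 in controls, 0.127, 0.145 and 0.106 in MCAO, and 0.0757, 0.0581 and 0.0504 with hypidone. Itgb4 over Itga6, the genes of the hemidesmosome receptor, which cerebral endothelium also carries, was 0.193, 0.339 and 0.218 in controls, 0.174, 0.0795 and 0.0571 in MCAO, and 0.220, 0.229 and 0.243 with hypidone. The first ratio was thus highest and the second lowest in the MCAO libraries, with p = 0.1 in the exact permutation test for each, against control and against hypidone. These ratios too were chosen after their values were seen, and the subunits also pair with others.

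Among the receptors of RGD-bearing matrix proteins, Itga5, the fibronectin receptor subunit, was at 1.37, 1.60 and 1.83 CPM in controls. It reached 3.07, 43.2 and 14.5 CPM in MCAO, and 3.80, 4.43 and 3.02 CPM with hypidone. All MCAO and all hypidone libraries were above all controls, but MCAO 4 lay within the hypidone range. The log2 fold change with MCAO was 3.66 ± 0.78 (adjusted p = 0.0148), the largest of the members called, and was 2.47 without MCAO 5 and 2.48 without control 5 and MCAO 5. It was not called without control 4 or without control 6 (adjusted p of 0.0591 and 0.0563). Itgav was at 113, 39.7 and 104 CPM in controls, 76.1, 112 and 88.1 CPM in MCAO and 106, 97.9 and 110 CPM with hypidone; its log2 fold change of 0.11 ± 0.33 (adjusted p = 0.840) turned to -0.24 without control 5. Itga8, a subunit of mesenchymal cells and neurons, was at 2.68, 10.7 and 3.13 CPM in controls and 5.49, 11.6 and 13.9 CPM in MCAO, and was called higher without control 5 (log2 fold change 1.83, adjusted p = 0.0207) but not with it. Itga2b, the platelet alpha subunit, ranged from 0.706 to 2.03 CPM and was not called.

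Of the beta subunits outside the leukocyte family, 1 of 5 tested was called. Itgb5, an alphav partner that binds vitronectin, was at 44.9, 49.5 and 41.9 CPM in controls, 54.4, 163 and 84.1 CPM in MCAO and 52.1, 64.0 and 50.8 CPM with hypidone. Its log2 fold change was 1.15 ± 0.33 (adjusted p = 0.0404), 0.63 without MCAO 5, and 0.70 without control 5 and MCAO 5 (adjusted p = 0.0314). Of the fits that left out 1 library, 2 of 9 called it, those without MCAO 4 or MCAO 5, and the others gave adjusted p up to 0.122. Itgb1, the partner of most laminin, collagen and fibronectin receptors, was at 64.4, 57.7 and 61.9 CPM in controls, 69.6, 242 and 110 CPM in MCAO and 68.8, 88.2 and 67.3 CPM with hypidone. In the authors' deposited table, Itgb1 had a fold of 2.28 for MCAO over control (q = 0.0347). Its groups did not overlap, but its log2 fold change here of 1.20 ± 0.38 missed the threshold (adjusted p = 0.0523), and was 0.56 without MCAO 5. Itgb3 behaved likewise at 5.49 to 9.53 CPM in MCAO against 0.978 to 4.51 CPM in controls (log2 fold change 1.30 ± 0.50, adjusted p = 0.0912, or 0.62 without control 5 and MCAO 5). Itgb8, which with alphav activates latent TGF-beta, was at 56.9 to 58.0 CPM in controls and 46.5, 82.1 and 79.3 CPM in MCAO, and was not called (adjusted p = 0.344). Itgb4 was at 4.76 to 9.02 CPM in controls and 2.94 to 6.77 CPM in MCAO (log2 fold change -0.55 ± 0.34, adjusted p = 0.277, running from -0.93 without MCAO 5 to -0.28 without control 5).

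**Figure D3:**
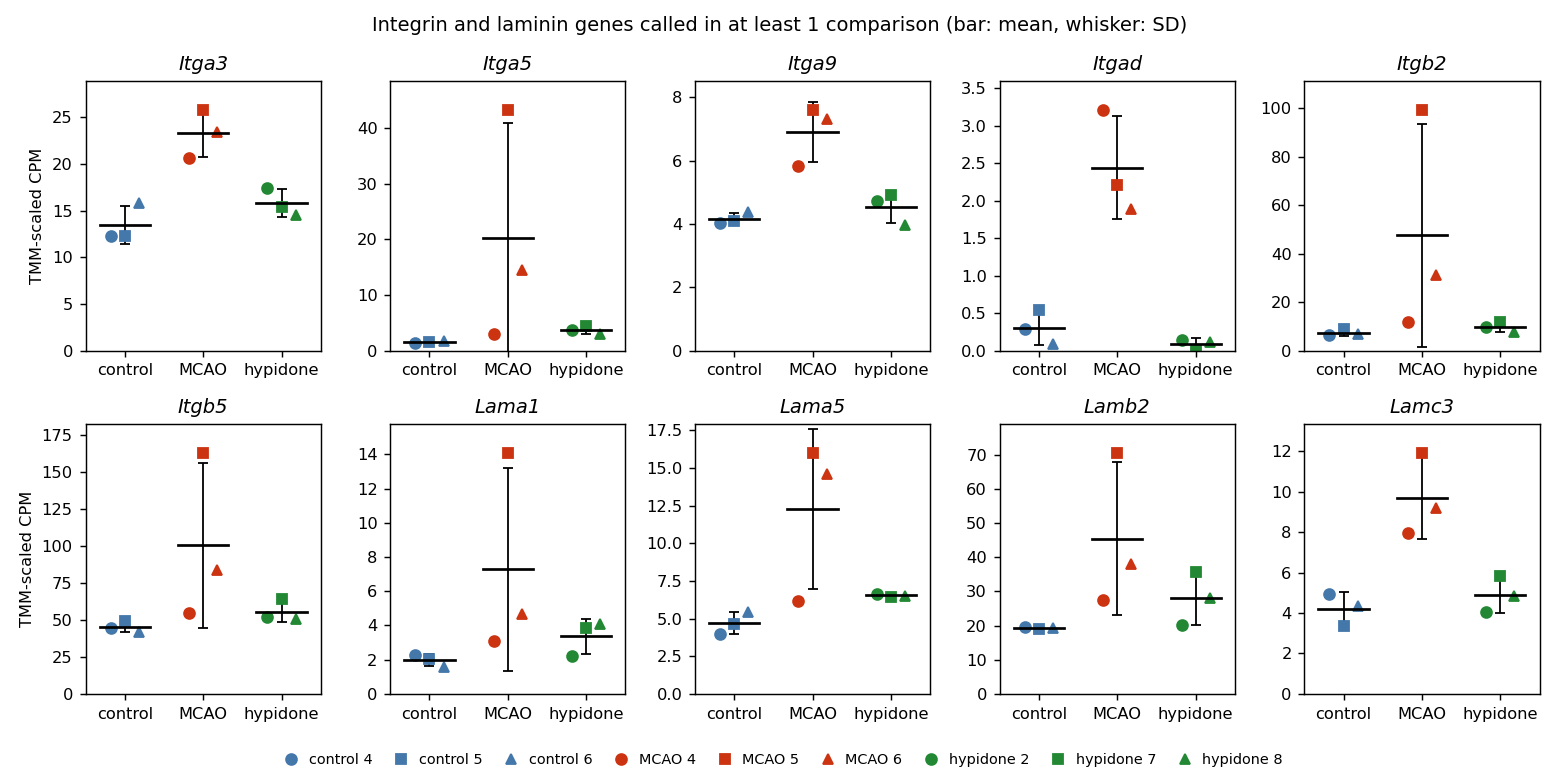
CPM of the 10 members called higher with MCAO in each library, with the group mean (bar) and SD (whisker, cut off at 0 where it would go below). MCAO 5 is the highest library for all of them except Itgad, and stands farthest from the other MCAO libraries for Itga5 (43.2 against 3.07 and 14.5 CPM) and Itgb2 (99.3 against 11.9 and 31.4 CPM).

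The laminin-binding alpha subunits gave 1 call of 3. Itga3, the alpha3 subunit, was at 12.3, 12.2 and 15.8 CPM in controls, 20.7, 25.8 and 23.4 CPM in MCAO and 17.4, 15.3 and 14.6 CPM with hypidone. The MCAO libraries were alike, and above all others. Its log2 fold change was 0.79 ± 0.16 (adjusted p = 0.0127), and the call was lost in 1 of 9 fits, without control 4 (adjusted p = 0.0524). Itga6, the alpha6 subunit, abundant in brain endothelium, was at 23.5 to 27.7 CPM in controls and 22.1, 81.0 and 49.0 CPM in MCAO (log2 fold change 0.99 ± 0.37, adjusted p = 0.0863, or 0.50 without MCAO 5). Itga7, known from muscle and vessel walls, was at 4.38 to 10.4 CPM in controls and 6.71, 12.4 and 18.1 CPM in MCAO and was not called (adjusted p = 0.178).

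Of the related alpha4 and alpha9 subunits, Itga9, a receptor of tenascin and osteopontin, was at 4.02, 4.10 and 4.39 CPM in controls, 5.83, 7.61 and 7.30 CPM in MCAO and 4.72, 4.93 and 3.98 CPM with hypidone. The MCAO libraries lay above all others. The log2 fold change was 0.73 ± 0.21 (adjusted p = 0.0410); the call was made in 2 of the 9 fits that left out 1 library, those without MCAO 4 or MCAO 5, with adjusted p up to 0.118 in the others. Itga4, the VCAM1 receptor subunit of leukocytes, was at 13.2, 29.3 and 8.56 CPM in controls and 16.0, 19.3 and 5.49 CPM in MCAO, with no separation (log2 fold change -0.33 ± 0.55, adjusted p = 0.700). The collagen-binding subunit genes Itga1, Itga10 and Itga11 were not called. Itga1, the highest of them, was at 2.84 to 7.00 CPM in controls and 5.09, 20.2 and 5.19 CPM in MCAO (adjusted p = 0.173), with a log2 fold change of 1.20 ± 0.59, or 0.24 without MCAO 5.

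Of the laminin alpha chains, Lama5, found in endothelial basement membrane, was at 3.99, 4.64 and 5.44 CPM in controls. It stood at 6.20, 16.0 and 14.6 CPM in MCAO and at 6.62, 6.46 and 6.53 CPM with hypidone. Both groups with occlusion lay above the controls. The log2 fold change with MCAO was 1.39 ± 0.33 (adjusted p = 0.0215), and the call was lost without control 4, control 6 or MCAO 6 (adjusted p of 0.0782, 0.0583 and 0.0711). Lama1, a chain of the leptomeningeal and astroglial basement membrane, was at 2.30, 2.04 and 1.59 CPM in controls and 3.10, 14.1 and 4.64 CPM in MCAO. Its log2 fold change of 1.88 ± 0.55 (adjusted p = 0.0411) fell to 0.99 without MCAO 5 (adjusted p = 0.0767), and only the fit without MCAO 4 called it among the 9 that left out 1 library. Lama2, the astrocytic and pericytic chain, was at 10.1 to 11.6 CPM in controls and 10.7, 30.0 and 19.4 CPM in MCAO (log2 fold change 0.91 ± 0.32, adjusted p = 0.0723, or 0.52 without MCAO 5). Lama4, the other endothelial chain, was at 11.6, 3.77 and 9.98 CPM in controls and 7.28, 24.7 and 9.17 CPM in MCAO (log2 fold change 0.70 ± 0.51, adjusted p = 0.349), and its value was -0.02 without MCAO 5.

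Lama3, best known from epithelia, was 1 of 3 tested members with a negative fold change after MCAO. It was at 4.09, 2.74 and 4.18 CPM in controls, 1.68, 3.91 and 2.44 CPM in MCAO and 3.74, 4.54 and 4.01 CPM with hypidone (log2 fold change -0.45 ± 0.35, adjusted p = 0.374). As a share of the summed laminin alpha FPKM, a measure chosen after its values were seen, it was 9.34%, 9.50% and 10.1% in controls, 4.58%, 3.39% and 4.08% in MCAO, and 7.44%, 8.00% and 7.82% with hypidone. No group overlapped with another on this share, and each of the 3 comparisons had p = 0.1 in the two-sided exact permutation test, the smallest possible. Other chain shares did not overlap either: those of Lama1 and Lamc3 were higher with MCAO than in controls. Those of Lama5 and Lamc3 were lower with hypidone than with MCAO. Among levels of all tested genes, 33.5% did not overlap between MCAO and control and 39.9% between hypidone and MCAO. The summed alpha chain level itself was 2.44 to 3.58 FPKM in controls and 2.89, 10.4 and 5.19 FPKM in MCAO.

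For the beta and gamma chains, Lamb2, the beta chain of mature vessel basement membrane, was at 19.5, 19.0 and 19.3 CPM in controls, 27.5, 70.4 and 38.0 CPM in MCAO and 20.2, 35.8 and 28.1 CPM with hypidone. The 3 controls were almost equal, and the log2 fold change was 1.24 ± 0.33 (adjusted p = 0.0311), or 0.78 without MCAO 5. It was called in 4 of the 9 fits that left out 1 library and lost without control 4, 5 or 6, MCAO 6 or hypidone 8 (adjusted p up to 0.0917). Lamb1 was at 5.27, 30.4 and 4.93 CPM in controls and 3.98, 33.6 and 8.05 CPM in MCAO, so that control 5 and MCAO 5 were both high; it made up 58.9% of the beta chain FPKM in control 5 and 18.8% to 19.6% in the other controls. Lamb3, an epithelial chain, ranged from 0.625 to 3.21 CPM and was not called. Lamc3, a gamma chain described in the cerebral cortex and retina, was at 4.95, 3.34 and 4.33 CPM in controls, 7.93, 11.9 and 9.17 CPM in MCAO and 4.03, 5.84 and 4.86 CPM with hypidone. Its MCAO libraries lay above all others, with a log2 fold change of 1.20 ± 0.26 (adjusted p = 0.0149), and the call was lost in 1 of 9 fits, without control 6 (adjusted p = 0.0562). Lamc1, the common gamma chain, was at 21.6 to 30.4 CPM in controls and 28.9, 72.5 and 42.2 CPM in MCAO (adjusted p = 0.0774).

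**Figure D4:**
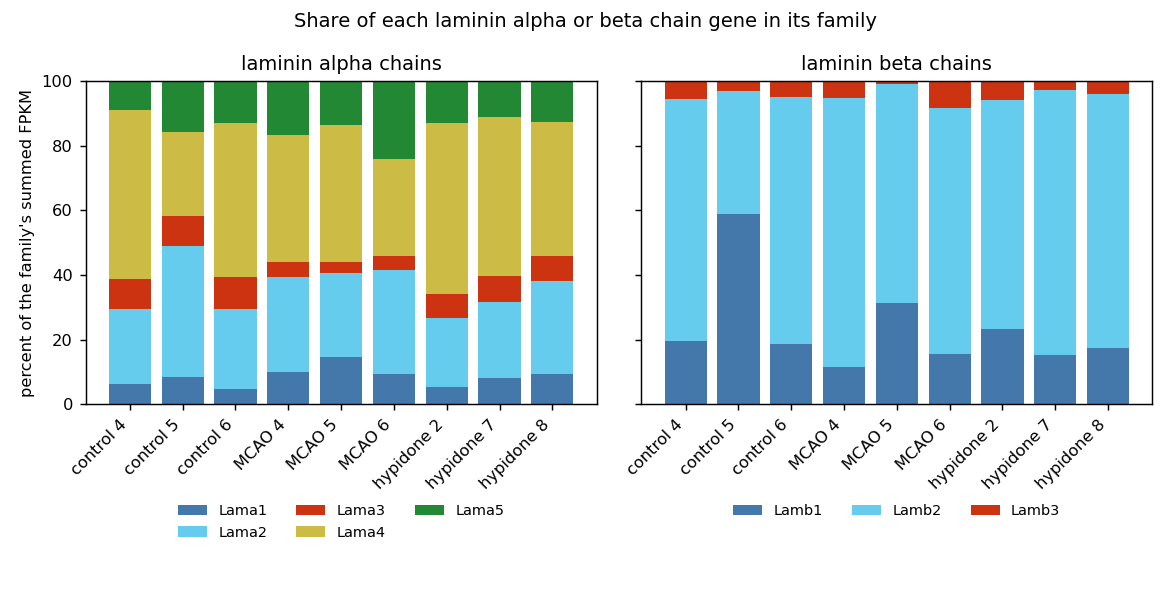
Share of each laminin alpha or beta chain gene in the summed FPKM of its chain family in each library, as stacked percentages. The Lama3 share is smallest in the 3 MCAO libraries (3.39% to 4.58%), and control 5 differs from the other controls in both families.

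The second question was how the hypidone group differed from MCAO without the drug. This comparison shares the MCAO libraries with the first, so that a value by which these libraries happen to be high enters both, with opposite sign. Of the 34 tested members 4 were lower with hypidone, Itga3, Itgad, Itgb2 and Lamc3, and 0 were higher, against 8.28% and 8.23% of all tested genes. In 6 tested members every hypidone library lay below every MCAO library, and in 0 above, against 19.0% and 20.9% of all genes (39.9% in both directions). The 6 of 34 below were thus near the share of all genes. They were Itga3, Itga8, Itga9, Itgad, Itgb3 and Lamc3. The median log2 fold change was -0.66 over the tested members and -0.04 over all tested genes.

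Itgad had the largest difference, with 5, 0 and 4 counts with hypidone against 113, 85 and 69 with MCAO (log2 fold change -4.75 ± 0.90, adjusted p = 0.0123). It was called in 8 of the 9 fits that left out 1 library and lost without hypidone 8 (adjusted p = 0.0579). In the authors' deposited table, Itgad had a fold of 7.89 for MCAO over control (q = 0.000552) and of 0.0357 for hypidone over MCAO (q = 4.58e-08). Itgb2 was lower by a log2 fold change of -2.26 ± 0.63 (adjusted p = 0.0404), though hypidone 7 and MCAO 4 were level at 11.9 CPM each. The value was -1.15 without MCAO 5 (adjusted p = 0.0609), and the 2 of 9 fits that still called it were those without MCAO 4 or control 5. For Itga3 the log2 fold change was -0.56 ± 0.16 (adjusted p = 0.0443), with hypidone libraries at 14.6 to 17.4 CPM and MCAO libraries at 20.7 to 25.8 CPM; it was called in 2 of 9 fits, those without MCAO 4 or control 5, with adjusted p up to 0.154 in the others. For Lamc3 it was -0.98 ± 0.26 (adjusted p = 0.0332), called in 4 of 9 fits and lost without control 6, MCAO 6 or any 1 hypidone library (adjusted p up to 0.117). Some marker genes were called between these groups too. All 5 erythrocyte genes were called higher with hypidone, with a median log2 fold change of 3.59 and summed levels of 71.3 to 187 CPM against 4.31 to 28.0 CPM in MCAO and 41.9 to 72.7 CPM in controls. Of the other lists, the macrophage genes had 3 of 12 called lower, the microglial genes 3 of 12 lower and 1 higher, and the astrocyte genes 3 of 11 lower. The pericyte and smooth muscle genes had 2 of 12 lower, the endothelial genes 1 of 12 lower and the neuron genes 2 of 12 higher. Over all tested genes 8.28% were called lower and 8.23% higher, and the endothelial count was near that share. No fibroblast and leptomeningeal (11 tested), neutrophil (6) or oligodendrocyte precursor (8) gene was called. The part of the marker lists in these differences was not tested.

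Other members were not called. Itga8, at 2.85, 3.25 and 2.40 CPM with hypidone against 5.49, 11.6 and 13.9 CPM with MCAO, had a log2 fold change of -1.87 ± 0.56 (adjusted p = 0.0502), and in the authors' deposited table a fold of 0.273 (q = 6.18e-05). Itga5 had a difference of -2.43 ± 0.73 on the log2 scale (adjusted p = 0.0515), with MCAO 4 inside the hypidone range, and of -1.25 without MCAO 5. The authors' deposited table gave Itga5 a fold of 0.186 (q = 0.00573) for hypidone over MCAO. Itga9 and Itgb3 did not overlap between the groups, at log2 fold changes of -0.61 ± 0.21 (adjusted p = 0.0779) and -0.87 ± 0.49 (adjusted p = 0.238). Adjusted p was 0.0837 for Lama5, 0.0999 for Itga6, 0.101 for Itgax and 0.103 for Itgb5, each lower with hypidone in the fit. Without MCAO 4, 17 members were called lower with hypidone, beside 14.1% of all genes in that fit, and without MCAO 5, 2 were, Itgad and Lamc3, beside 10.7%. With control 5 and MCAO 5 both left out, 5 were called lower, the 4 above and Itga8, and 4 higher, Itgav, Itgb4, Lama3 and Lama4, beside 16.0% and 16.3% of all genes.

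**Figure D5:**
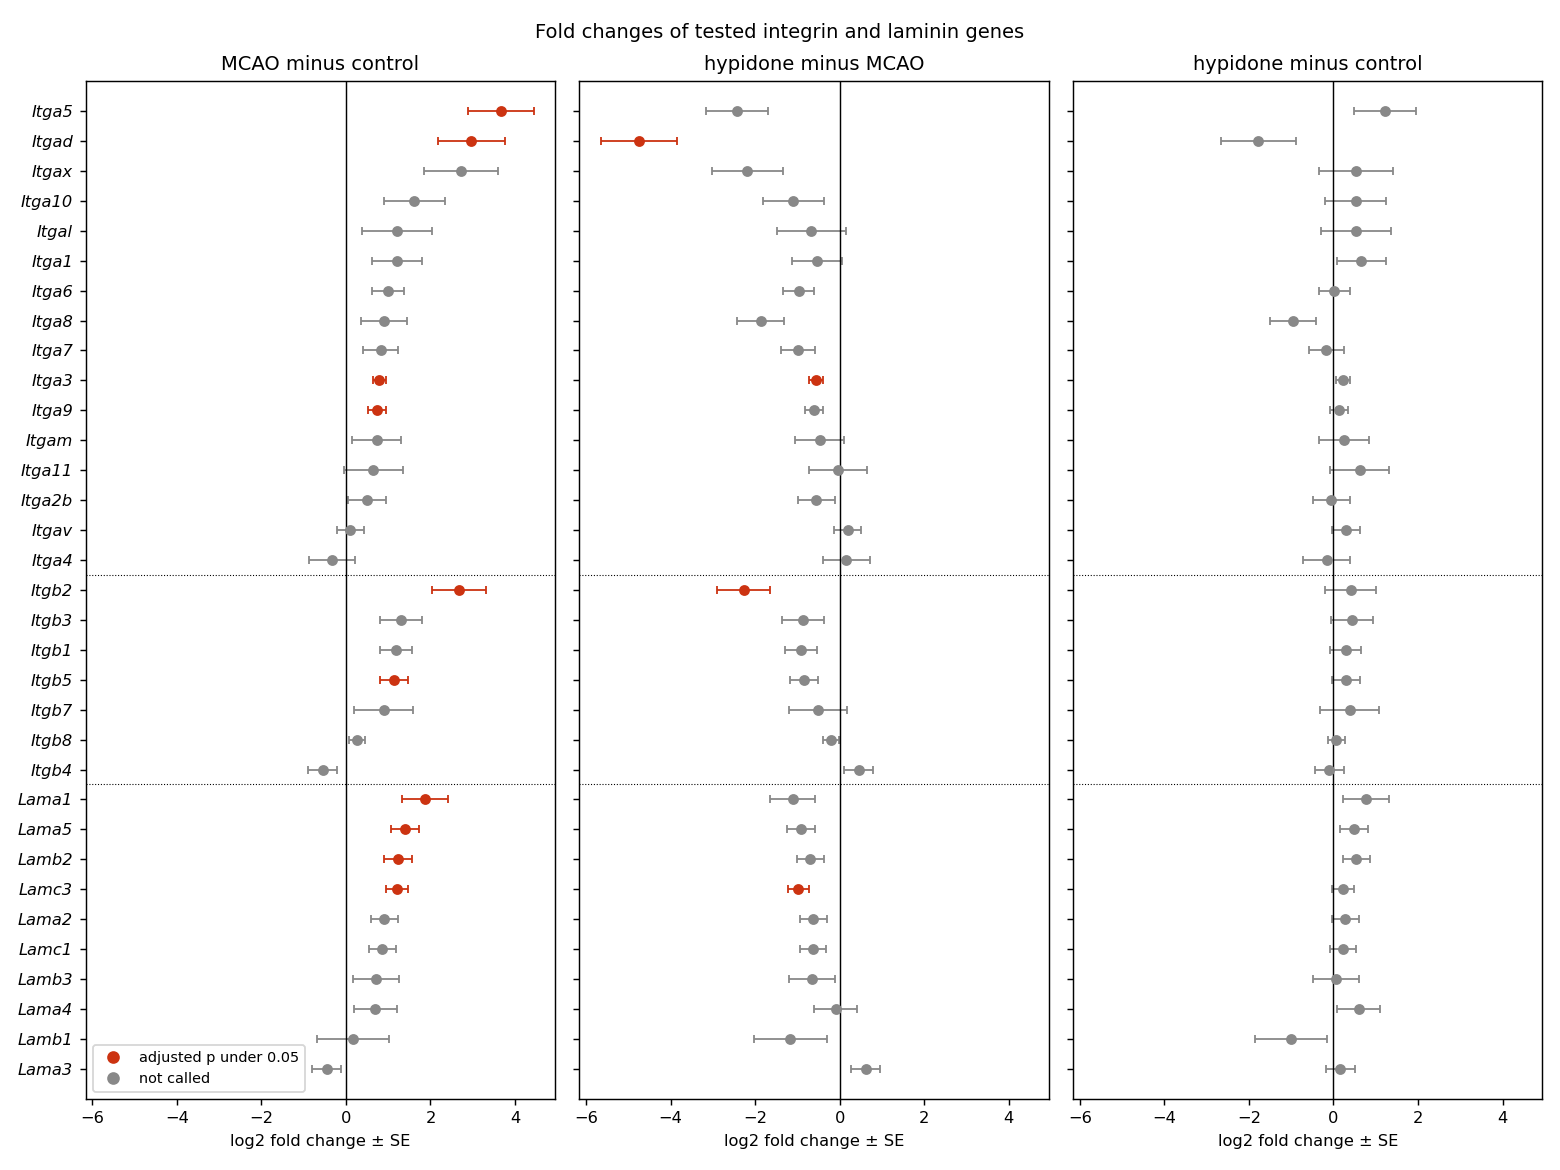
Log2 fold change of the tested members with its SE in the 3 comparisons, with called members marked and 1 tested gene not drawn. Most points lie right of 0 for MCAO against control and left of 0 for hypidone against MCAO, which share the MCAO libraries, and for hypidone against control no member is called.

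For hypidone against control, 0 of 34 tested members were called by edgeR, as were 0 of all 14756 tested genes (a background of 0%), and 0 members had an unadjusted p under 0.05. DESeq2, limma voom and limma on FPKM also called 0 members. In 5 tested members every hypidone library lay above every control, Itga5, Itgb1, Itgb5, Lama5 and Lamb2, and in 0 below, against 3.86% and 2.71% of all tested genes (6.57% in both directions). For Itga5 these were the values given above, 3.02 to 4.43 CPM against 1.37 to 1.83 CPM, with a log2 fold change of 1.22 ± 0.73. The others were smaller, at 0.29 ± 0.37 for Itgb1, 0.29 ± 0.33 for Itgb5, 0.48 ± 0.33 for Lama5 and 0.54 ± 0.33 for Lamb2. The median log2 fold change was 0.28 over the tested members, of which 27 of 34 had a positive value, and -0.01 over all tested genes, of which 48.1% did. The SEs above take in the spread of the MCAO libraries. In a fit of the hypidone and control libraries alone the SE was 0.24 for Itga5, 0.12 for Itgb1, 0.13 for Itgb5, 0.17 for Lama5 and 0.20 for Lamb2. That fit still called 0 members and 0 genes, with 4 of 32 members and 2.57% of all genes at an unadjusted p under 0.05. A missed threshold does not show that the groups were alike.

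Genes of integrin ligands and of other basement membrane proteins were followed as a list. Of 27 tested, 8 were called higher and 1 lower with MCAO, and 1 higher and 4 lower with hypidone against MCAO. Over all tested genes 10.6% were called higher and 9.81% lower with MCAO, and 8.23% and 8.28% with hypidone against MCAO. The gene called lower with MCAO was Mfge8, whose protein bridges alphav integrins on phagocytes to dying cells, at 180, 158 and 157 CPM in controls, 58.8, 70.4 and 51.8 CPM in MCAO and 142, 162 and 166 CPM with hypidone. It had a log2 fold change of -1.45 ± 0.14 with MCAO (adjusted p = 0.00160) and was the gene called higher with hypidone, by 1.38 ± 0.14 (adjusted p = 0.00201). Its level was even within each group, unlike that of most members. Icam1, the endothelial ligand of beta2 integrins, was at 2.47 to 3.07 CPM in controls and 8.44, 24.0 and 12.2 CPM in MCAO (log2 fold change 2.44 ± 0.45, adjusted p = 0.00945). The collagen IV chain genes Col4a1 and Col4a2, which form the second network of basement membranes, had log2 fold changes of 2.56 ± 0.54 and 2.15 ± 0.44 (adjusted p of 0.0145 and 0.0125), again highest in MCAO 5.

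Of 36 tested genes of integrin adaptors and signalling, 7 were called higher and 1 lower with MCAO, and 1 higher and 5 lower with hypidone against MCAO. The shares over all tested genes were again 10.6% higher and 9.81% lower with MCAO, and 8.23% and 8.28% with hypidone against MCAO. Nrros, whose microglial protein holds latent TGF-beta1 for release by alphavbeta8 integrin, was at 4.50, 5.21 and 4.75 CPM in controls, 20.4, 21.6 and 17.1 CPM in MCAO and 4.61, 5.72 and 5.95 CPM with hypidone. The MCAO libraries were alike and far above the rest (log2 fold change 2.03 ± 0.18, adjusted p = 0.00158). Tgfb1 itself was at 5.86 to 7.06 CPM in controls and 14.3, 39.1 and 22.6 CPM in MCAO (log2 fold change 1.95 ± 0.33, adjusted p = 0.00727). Zyx, encoding zyxin of focal adhesions, rose by 0.78 ± 0.14 on the log2 scale (adjusted p = 0.00860). Tln2, encoding talin 2, the neuronal form of the integrin activator, fell, from 110 to 122 CPM in controls to 60.8 to 86.6 CPM in MCAO (log2 fold change -0.74 ± 0.15, adjusted p = 0.0116). In hypidone against control no gene of either list was called, as none was in the whole table.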

How the data were processed

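Total RNA of 9 mouse brain samples was isolated with TRIzol for VAHTS libraries, per the labels' protocols. Counts per gene and FPKM (counts scaled by library size and a fixed gene length) were deposited by the authors, as was a table with a ratio (fold) and q-value for 2 comparisons. The submitters' processing notes name mm10 and DESeq2. For the aligner, counter and strand setting, nothing is stated in the sources used here. Genes were kept with filterByExpr, which left 14756 of 18138, scaled with TMM, and all 9 libraries entered 1 edgeR 4.0.16 quasi-likelihood fit in R 4.3.3 (6 residual degrees of freedom, two-sided F tests, Benjamini-Hochberg adjustment over all tested genes, called under 0.05); the SE is the size of the log2 fold change over the square root of F. CPM uses TMM factors, ratios and shares use FPKM, and single values were compared with exact permutation tests. Groups come from the treatment labels and numbers from titles. No pair of same-group libraries agreed within sampling noise (chi-square per degree of freedom 15.1 to 323). The members, lists and tests were chosen with earlier results of these data known, so their counts are descriptions. Members were named where called in a comparison, highest of a role group by FPKM or untested, others where their role group is described; from the ligand and adaptor lists, the 4 genes with the lowest p for MCAO against control among those called. Itga7, Itga8, Itgax, Itgb3, Itgb4, Lama2, Lama3 and Cox6a2 were looked at after their values were seen. Alternatives were other scaling, filters and tools (DESeq2 1.42.0, limma 3.58.1 with voom, limma on log2 of FPKM plus 1), a fit of 2 groups alone, a replicate block, and leaving out each library; leaving out control 5 and MCAO 5 together, and all alternatives for ratios and shares, were added after seeing the data. Promoter windows are from RefSeq, gene positions from GENCODE M21. Library totals ran from 32075682 to 37325027 counts, and few counts limit the precision of low genes such as Itgad. The values of 1 tested laminin gene are not reported here.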

Additional observations from a re-analysis of the deposited data

How the results depend on the processing

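For MCAO against control, the 10 members called stayed 10 with DESeq2 size factors, library totals or a CPM filter and became 9 without a filter. They were 16 with DESeq2, 20 with limma voom (18 higher, 2 lower), 4 with limma on FPKM, 0 in a fit of the 2 groups alone, 11 without control 5 and MCAO 5, and 1 to 16 without 1 library at a time: 1 without control 4 (Lamc3), 1 without control 6 (Itga3), 4 without MCAO 6, 16 without MCAO 4, and 6 and 5 without hypidone 2 and hypidone 8. For hypidone against MCAO, the 4 members called stayed 4 under other scaling or a CPM filter and were 3 without a filter, 10 with DESeq2, 18 with limma voom (3 higher, 15 lower), 2 with limma on FPKM, 3 in a fit of the 2 groups alone, 9 without control 5 and MCAO 5, and 0 to 17 without 1 library at a time: 1 without control 6, MCAO 6, hypidone 2 or hypidone 7, 0 without hypidone 8, 2 without MCAO 5 and 17 without MCAO 4. Over all tested genes the calls for MCAO against control fell to 543 higher and 700 lower without control 4, from 1567 and 1448. Shares called over all genes shifted too, given here as higher and lower. For MCAO against control they were 16.1% and 14.2% with DESeq2, 24.7% and 25.6% with limma voom and 8.67% and 8.81% with limma on FPKM. For hypidone against MCAO they were 12.5% and 14.7%, 26.5% and 25.2%, and 8.07% and 7.54% in the same fits. In fits of the 2 groups alone they were 2.38% and 2.33%, and 7.21% and 6.66%. Hypidone against control gave 0 members under every alternative. The cause of these shifts was not tested.

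Directions turned only for members that the fit of all 9 libraries did not call. Some turned values were themselves called. Without control 5 and MCAO 5, Itgav was called lower with MCAO against control, and Lama4 higher with hypidone against MCAO. With limma voom, MCAO against control gave -0.0046 for Itgam, -0.19 for Itgav and -0.049 for Lama4, and hypidone against MCAO gave 0.44 for Itga1, 0.36 for Itgam and 0.45 for Lama4; limma on FPKM gave 0.0037 for Lama4. Without control 5 and MCAO 5, MCAO against control gave 0.0020 for Itga4, -0.39 for Itgam, -0.38 for Itgav and -0.37 for Lama4, and hypidone against MCAO gave 0.43 for Itga1, 0.75 for Itgam and 0.62 for Lama4. Without 1 library at a time, the log2 fold change for MCAO against control ran from -0.66 to 0.32 for Itga4, -0.50 to 1.16 for Itgam, -0.24 to 0.36 for Itgav and -0.017 to 0.998 for Lama4. For hypidone against MCAO it ran from -0.86 to 0.43 for Itga1, -0.22 to 0.48 for Itga4, -0.91 to 0.75 for Itgam and -0.40 to 0.62 for Lama4.

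Control and MCAO share title numbers. The deviations of same-numbered libraries from their group means correlated at 0.12, 0.12 and -0.04 across genes. Those of differently numbered libraries ran from -0.15 to 0.12. Not every same-numbered pair was over 0.1, and the numbers were not taken to pair the samples. With a replicate block, which leaves 2 residual degrees of freedom, 0 members and 0 genes were called for MCAO against control.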
